A study of Homo sapiens with 18 samples.

Results

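The nuclear genes of the mitochondrial respiratory chain and ATP synthase were followed in an established breast cancer cell line, MDA-MB-436, which is triple-negative, with and without SMARCAL1, a DNA-dependent ATPase that remodels stalled replication forks. The genes were taken by symbol: the NDUF, SDH, UQCR, COX and ATP5 families, without pseudogenes. This gave 86 genes of the 57120 symbols in one count file, and all 86 were also found, 21 of them under another symbol, among the 44267 gene entries of the other. They were 38 genes of complex I, 4 of complex II, 8 of complex III, 14 of complex IV and 22 under the ATP synthase prefix. The prefix also took in genes that encode no subunit of the enzyme, ATP5S and DMAC2, and the readthrough locus ATP5MF-PTCD1. NDUFA4 was counted with complex I by its symbol, although RefSeq now calls it COXFA4 and its protein is known as part of complex IV.

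The 18 libraries formed 8 groups. One assay, stranded TruSeq sequencing of total RNA, had 3 libraries of a control genotype and 3 of SMARCAL1 knockout clone 1. The other, PLATE-seq, a plate-based assay of polyadenylated RNA, had 2 libraries each of a control, of knockout clones 1, 2 and 3, of an siRNA control and of siRNA against SMARCAL1. All cells were grown in DMEM with bovine growth serum, penicillin and streptomycin. Each knockout group is a single clone, so that the gene and the clone cannot be told apart within it. The replicates are called biological in the labels, which do not say whether they were separate cultures or passages, and p-values measure the spread between these libraries.

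Complexes I to IV pass electrons from NADH and succinate to oxygen. Complexes I, III and IV pump protons as they do so, and ATP synthase uses the proton gradient to make ATP. Complex II is built wholly from nuclear genes, whereas the others combine nuclear subunits with subunits encoded in mitochondrial DNA. The nuclear genes lie on many chromosomes, and the transcription factors NRF1, GABP, YY1 and the oestrogen-related receptors are known to bind the promoters of many of them.

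TruSeq libraries held 10257584 to 19270648 counts and PLATE-seq libraries 807861 to 3068887. SMARCAL1 itself was at 14.7 ± 1.21 CPM (counts scaled to a common library size by TMM; SD, n = 3) in the TruSeq control and 14.0 ± 0.696 CPM (SD, n = 3) in clone 1, so its RNA level did not check the knockout labels. In PLATE-seq it had 15 counts over the 2 siRNA control libraries and 0 over the 2 libraries of siRNA against SMARCAL1, while the clones were at 1.78 to 13.4 CPM and the control at 0 to 3.72 CPM. ESR1 and PGR were under 1 CPM in all TruSeq libraries and had no counts in PLATE-seq, and the epithelial keratin KRT18 averaged 718 CPM in the TruSeq control. The 6 leukocyte markers summed to 30.3 to 34.3 CPM in the TruSeq control and 23.3 to 25.8 CPM in clone 1, mostly CD68 and CD14, and the 4 endothelial markers to 3.74 to 9.56 and 2.03 to 9.36 CPM. In PLATE-seq they were at most 8.20 and 4.16 CPM in any library, with 3 of 6 and 2 of 4 markers at 0 throughout. None of these markers that could be tested, 3 of each list in TruSeq and none in PLATE-seq, was called in the fit without further terms, and their part in the results was not tested. The TruSeq libraries split by the number of symbols with a count: control replicates 1 and 2 and clone 1 replicate 1 had 36042 to 39068, and control replicate 3 and clone 1 replicates 2 and 3 had 28621 to 30653. In PLATE-seq, clone 3 replicate 2 had 24.6% of its counts on mitochondrial genes, and the other 11 libraries 28.8% to 34.3%. For clone 3 and for TruSeq, values without these libraries or by side of the split are given beside the calls and medians.

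Promoter sequence was examined first, because the members share regulators. RefSeq windows of 300 bases (GRCh38.p14), with 250 before the start of transcription, were matched for 70 of the 86 members. Letters of known motifs were searched on both strands. The motif of NRF1, GCGCA, any base and GCGC, was in 17 of the 70 members (24.3%) and in 9.67% of 15843 protein-coding genes. AANATGGC, that of YY1, was in 25 members (35.7%) and 9.67% of protein-coding genes. These counts take in matches anywhere in the 300 bases, also after the start. AANATGGC lay wholly before the start only in ATP5PF, COX7B, NDUFA1, NDUFS1 and NDUFS8. CCGGAAG, an ETS-type motif bound by GABP, was in 20 members (28.6%) and 16.5% of protein-coding genes. AAGGTCA, that of the oestrogen-related receptors, was in 11 members (15.7%) and 4.26%. The SP1 letters GGGCGG were in 60.0% of members and 64.3% of protein-coding genes, CCAAT was in 37.1% and 42.1%, and TATAAA was in 10.0% and 12.4%. These shares describe the windows and are not tests of binding. The motifs searched can overlap.

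Upstream stretches that lie in no annotated exon are shown for NDUFA4, NDUFA10 and ATP5MPL, which carry some of the changes described below. That of NDUFB4 is also shown, whose window held both an NRF1 and an oestrogen-related receptor match. Capitals mark motif matches.
NDUFA4, chr7:10940257-10940403, minus strand: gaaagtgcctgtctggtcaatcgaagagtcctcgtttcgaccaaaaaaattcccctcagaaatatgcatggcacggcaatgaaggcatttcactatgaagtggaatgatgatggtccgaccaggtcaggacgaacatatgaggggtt
NDUFA10, chr2:240025403-240025592, minus strand: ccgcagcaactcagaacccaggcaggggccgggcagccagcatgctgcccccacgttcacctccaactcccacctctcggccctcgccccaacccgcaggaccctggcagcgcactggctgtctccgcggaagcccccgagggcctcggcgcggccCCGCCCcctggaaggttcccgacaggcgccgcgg
ATP5MPL, chr14:103921567-103921779, minus strand: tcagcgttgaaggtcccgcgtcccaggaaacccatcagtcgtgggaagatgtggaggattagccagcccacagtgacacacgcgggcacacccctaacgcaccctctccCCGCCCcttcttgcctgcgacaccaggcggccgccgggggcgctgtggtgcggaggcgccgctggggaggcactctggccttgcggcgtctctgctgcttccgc
NDUFB4, chr3:120596086-120596308, plus strand: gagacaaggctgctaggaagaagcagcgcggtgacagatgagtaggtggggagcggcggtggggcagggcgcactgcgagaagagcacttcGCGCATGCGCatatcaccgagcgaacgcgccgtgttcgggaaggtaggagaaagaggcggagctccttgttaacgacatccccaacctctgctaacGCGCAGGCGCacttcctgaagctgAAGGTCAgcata
The stretches of NDUFA10 and ATP5MPL each held the SP1 letters, and that of NDUFA4 held none of the motifs searched. The window of ATP5MPL also held an NRF1 match 17 bases before the start, outside the stretch shown. ATP5PO, called lower in TruSeq, is not shown. Its stretch of 74 bases held none of the motifs searched, and its window held an NRF1 match 24 bases before the start. NDUFB4, a supernumerary subunit of complex I, was not called in any comparison, with log2 fold changes of -0.11 (SE 0.0840) in TruSeq and 0.24 (SE 0.25) for the mean of the clones in PLATE-seq.

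Most members were abundant. Per kilobase of exon in TruSeq, the 79 members that passed the filter on low counts had a median level of 55.3 CPM, against 5.60 CPM for the 17302 genes tested that had a length, and 77 of the 79 were above that median. NDUFS5, a supernumerary subunit of complex I, had the highest level of all members at 633 CPM per kilobase, with libraries from 559 to 722. The next levels were 536 CPM per kilobase for UQCRH, the hinge protein of complex III, 396 for ATP5F1B, the catalytic beta subunit, 336 for COX8A, a subunit of complex IV, 305 for COX6A1 and 271 for SDHA, the flavoprotein that oxidises succinate. The library ranges of NDUFS5 and UQCRH overlapped, as did those of ATP5F1B, COX8A and COX6A1 and those of COX6A1 and SDHA. The annotated exons of NDUFS5, UQCRH and COX8A cover only 548, 604 and 507 bases. Counts from cell lysates do not tell fewer cells from less RNA per cell.

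**Figure D1:**
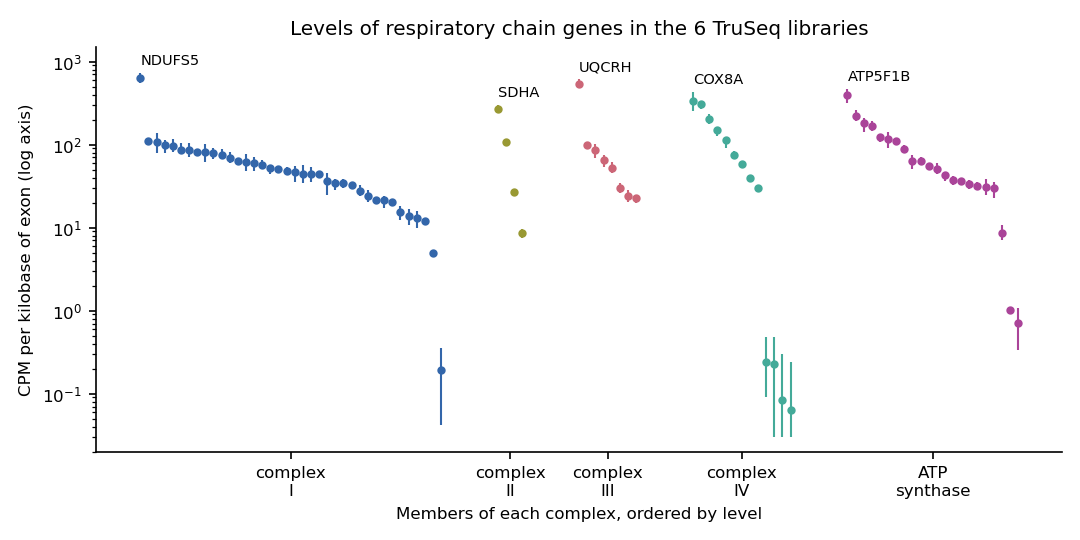
Mean level of each member in CPM per kilobase of exon (log axis) over the 6 TruSeq libraries, with vertical bars from the lowest to the highest library, by complex; a bar that reaches 0.03 includes a library at 0, and COX6A2, at 0 in every library, is not drawn. The member with the highest level of each complex is named, from 271 CPM per kilobase for SDHA to 633 for NDUFS5, and the restricted forms NDUFA4L2, COX6B2, COX8C, COX7A1 and COX7B2 lie below 1.

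Several subunits come in a general form and a form restricted to other tissues, and in both assays the general form held nearly all counts. Over the 6 TruSeq libraries NDUFA4 had 20137 counts and NDUFA4L2, a hypoxia-inducible relative, 19. COX6A1 had 15039 counts and the muscle form COX6A2 0. COX7A2 had 13993 counts and the muscle form COX7A1 6. COX6B1 had 9073 counts against 58 for the testis form COX6B2, COX7B 15259 against 3 for COX7B2, and COX8A 15088 against 9 for COX8C. The 3 genes that encode the same subunit c of the rotating ring, ATP5MC1, ATP5MC2 and ATP5MC3, were all present, at 64.0, 33.6 and 31.8 CPM per kilobase in TruSeq. That order depends on their annotated exons, which cover 683, 2244 and 5673 bases. In CPM it was reversed, with 46.5, 79.0 and 175 CPM in the TruSeq control. In PLATE-seq, which was compared by CPM because its reads are not spread over the transcript, they were at 115, 347 and 114 CPM, with ATP5MC2 the highest.

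The order of members differed between the assays. ATP5F1E, the epsilon subunit of the catalytic head, had the highest PLATE-seq level at 2791 CPM (2290 to 3309 over 12 libraries) and ranked 50 of 86 per kilobase in TruSeq. COX7B, at 1739 CPM, and NDUFB2, at 1542 CPM, followed in PLATE-seq with ranks of 38 and 70 in TruSeq. These TruSeq ranks depend on the annotated exons of ATP5F1E, COX7B and NDUFB2, which cover 5126, 3024 and 3184 bases. UQCRQ led complex III at 1003 CPM, and SDHA led complex II at 148 CPM. Across the 81 members with counts in both assays, Spearman's rho of the 2 levels was 0.42, as a description over genes that differ in length and in annotated 3′ ends. NDUFV2, NDUFA7 and ATP5PB had 44.2, 68.7 and 55.3 CPM per kilobase in TruSeq and 1.32, 1.83 and 6.5 CPM in PLATE-seq.

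For the knockout of SMARCAL1 in TruSeq, the question was whether any respiratory chain gene differed between clone 1 and the control. Of 79 members tested, 4 rose and 1 fell (edgeR's quasi-likelihood test, adjusted p under 0.05 over all genes). Over all 17371 genes, 6.27% were called, 3.96% higher and 2.31% lower, so that the members' share of 5 in 79 was near the background. The members' median log2 fold change was -0.01, and that of all genes tested -0.00442. The members spanned -0.32 to 0.53, and 89.9% of them lay within 0.25 of 0, against 64.0% of all genes tested. Their median standard error was 0.0964 against 0.138. The other 7 members did not reach the filter: NDUFA4L2, COX6A2, COX6B2, COX7A1, COX7B2, COX8C and ATP5MGL, with 0 to 58 counts each over the 6 libraries.

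NDUFA4 (chr7:10931951-10940256, minus strand, GRCh38), the subunit now assigned to cytochrome c oxidase, had the largest change among the members. It was at 170, 190 and 209 CPM in the control and at 239, 292 and 290 CPM in clone 1. All knockout libraries were above all control libraries, and the level rose 1.44-fold (log2 0.53, SE 0.104, edgeR adjusted p = 0.0216). Within the libraries with more symbols the log2 ratio was 0.41 (1 knockout, 2 control) and within those with fewer 0.47 (2 knockout, 1 control). NDUFA10 (chr2:239892450-240025402, minus strand), a supernumerary subunit of complex I related to nucleoside kinases, was at 110, 119 and 111 CPM in the control and 151, 145 and 157 CPM in clone 1. The groups did not overlap, and NDUFA10 rose 1.33-fold (log2 0.41, SE 0.0664, edgeR adjusted p = 0.00990), with 0.40 and 0.45 on the more and fewer sides.

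In ATP synthase the changes went both ways. ATP5MF (chr7:99448475-99466331, minus strand) encodes subunit f of the membrane part. It was at 58.2, 59.4 and 70.8 CPM in the control and 79.4, 86.3 and 90.0 CPM in clone 1. The groups were apart, and it rose 1.36-fold (log2 0.44, SE 0.0943, edgeR adjusted p = 0.0305), with log2 ratios of 0.43 and 0.32 on the more and fewer sides. ATP5MF-PTCD1, a readthrough locus (chr7:99419749-99466197) that shares exons with ATP5MF, rose by 0.42 on the log2 scale (SE 0.0930, adjusted p = 0.0353), with 0.44 and 0.28 on the 2 sides. Its reads and those of ATP5MF cannot be fully told apart, so they are not separate evidence. ATP5PO (chr21:33903453-33915980, minus strand) encodes the subunit of the peripheral stalk that confers sensitivity to oligomycin. It was at 211, 245 and 235 CPM in the control and at 179, 188 and 185 CPM in clone 1, below every control library. It fell by 0.32 on the log2 scale (SE 0.0718, edgeR adjusted p = 0.0338), with -0.35 and -0.33 on the 2 sides, and with no filter on low counts its adjusted p was 0.0996. Its exons overlap those of AP000311.1 on the same strand and LINC00649 on the other.

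These calls were not held by every set of libraries. With any 1 library left out, 0 to 5 members were called, and none without control replicate 2 or without clone 1 replicate 3. The number of all genes called also varied between these fits, over the range given in the last section. The loss of calls is therefore not read as particular to the members. The direction of the 5 changes was kept in each such fit. With the side of the split by detected symbols as a term, 25 members were called beside 21.8% of all genes. Of the members 7.59% were higher and 24.1% lower (6 and 19), and of all genes 11.4% were higher and 10.4% lower. All 5 members of the first fit were among them with the same sign. The 19 lower members had log2 fold changes from -0.34 to -0.16 and included ATP5F1B (-0.23), NDUFB9 (-0.28), NDUFS5 (-0.28) and UQCRH (-0.24). Over the 79 members, 49 (62%) were below 0 within both sides, 18 (22.8%) above 0 within both, and 12 differed in sign between the sides. Of all genes 36% were below 0 within both sides and 36.1% above. With the term, 27 of 78 mitochondrial ribosomal protein genes were also lower and 1 higher, and 24 of 75 cytosolic ones were lower. Of 49 assembly factors 7 were lower, and of 12 regulators of mitochondrial biogenesis 4, with none higher in either list. Of 6 markers of triple-negative breast lines tested, 3 were lower and 1 higher. Of the leukocyte markers 1 of 3 was lower, and 1 of 3 endothelial markers was higher. Since each side has 1 library of one genotype and 2 of the other, these values rest on few libraries.

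**Figure D2:**
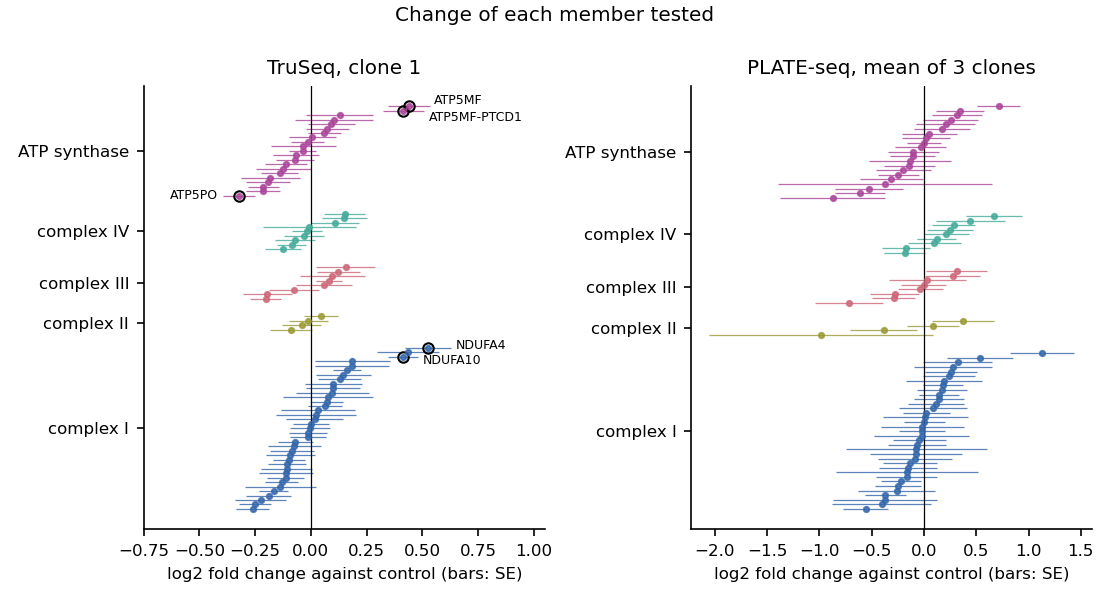
Log2 fold change against the control (horizontal axis, bars are the standard error) of each member tested, by complex, in TruSeq for clone 1 (79 members) and in PLATE-seq for the mean of 3 clones (77 members); open circles mark edgeR adjusted p under 0.05. In TruSeq the members range from -0.32 to 0.53 and 5 were called. NDUFA3, not called, lies at 0.43, above the called NDUFA10 and ATP5MF-PTCD1. In PLATE-seq none was called, and the horizontal scales differ.

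By complex, the TruSeq medians were near 0. They were -0.00542 for the 37 members of complex I tested, -0.03 for the 4 of complex II, 0.07 for the 8 of complex III, -0.02 for the 9 of complex IV and -0.04 for the 21 under the ATP synthase prefix. No member of complexes II, III and IV was called as grouped by symbol, and the summed level of all members was 10240 ± 827 CPM (SD, n = 3) in the control and 10130 ± 728 CPM (SD, n = 3) in clone 1. Without regard to the test, 7 members had all knockout libraries above all controls and 10 had them below, 17 of 79 against 26.3% of all genes. NDUFA3, a supernumerary subunit of complex I, had a log2 fold change of 0.43 (SE 0.139, adjusted p = 0.112), and NDUFS5 and NDUFA1 -0.25 and -0.26 (adjusted p = 0.0811 and 0.0814), none of them past the threshold.

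PLATE-seq tested the same question in 3 clones with 2 libraries each. Of 77 members tested, none was called for the mean of the 3 clones, where 0.198% of 8595 genes were. At an unadjusted p under 0.05 there were 6 members (7.79%), against 10.1% of all genes. DESeq2 called none either. None was called for clone 1 (0% of genes called) or clone 2 (0.0349% of genes called). At an unadjusted p under 0.05 there were 5 members (6.49%) in clone 1 against 8.19% of all genes, and 10 members (13%) in clone 2 against 9.66%. Clone 3 had 1 member called higher, beside 0.663% of all genes called and 0.303% called higher. At an unadjusted p under 0.05 clone 3 had 12 members (15.6%), against 11.9% of all genes. The comparisons share the 2 control libraries. The 9 members that did not pass the filter were NDUFV2, NDUFA7, NDUFA4L2, COX6A2, COX6B2, COX7A1, COX7B2, COX8C and ATP5MF-PTCD1.

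NDUFA4 had the highest fold change among the members for the mean of the clones. It was at 279 and 216 CPM in the control, at 462 and 508 CPM in clone 1, at 332 and 532 CPM in clone 2 and at 365 and 1137 CPM in clone 3. Every knockout library was above both control libraries. The log2 fold change of NDUFA4 was 1.13 (SE 0.306, edgeR adjusted p = 0.137) for the mean of the clones, 0.97 (SE 0.352) for clone 1, 0.80 (SE 0.354) for clone 2 and 1.60 (SE 0.356, adjusted p = 0.0357) for clone 3, the only one past the threshold. Without clone 3 replicate 2, the library with the low mitochondrial share, NDUFA4 in clone 3 was at 0.57 with adjusted p = 0.808, and without control replicate 1 or 2 it was at 1.81 and 1.44 (adjusted p = 0.126 and 0.233). For the mean of the clones NDUFA4 passed the threshold without clone 3 replicate 1 (1.33, adjusted p = 0.00604) and with no filter on low counts (1.15, adjusted p = 0.00102). The 2 siRNA control libraries, at 362 and 371 CPM, were also above the control, by a log2 difference of 0.57 (SE 0.352, adjusted p = 0.752), and with them in place of the control the value for clone 3 was 1.04 (adjusted p = 0.340).

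ATP5MF was at 623 and 667 CPM in the control and at 850 to 1480 CPM in the 6 clone libraries, again without overlap. Its log2 fold change was 0.71 (SE 0.209, edgeR adjusted p = 0.170) for the mean of the clones, not past the threshold. For clone 3 alone it was 0.90 (adjusted p = 0.102), and 1.2 without clone 3 replicate 2 (adjusted p = 0.0324). The siRNA control was at 1123 and 1112 CPM, inside the range of the clones, and with it in place of the control the value for the mean turned to -0.08. NDUFA10 and ATP5PO, called in TruSeq, had log2 fold changes for clone 1 of 0.21 (SE 0.421) and -0.15 (SE 0.298) in PLATE-seq, where NDUFA10 had 23 to 130 counts in a library. The TruSeq values of both lay within 1 standard error of these.

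Across the 6 clone libraries and the 2 control libraries, 4 members did not overlap, beside 12% of all genes tested. NDUFA4, ATP5MF and COX6A1 were higher and NDUFS6 lower. COX6A1, a nuclear subunit of complex IV, was at 71.9 and 81.9 CPM in the control and 88.5 to 149 CPM in the clones. NDUFS6, a zinc-binding subunit of complex I, was at 483 and 412 CPM in the control and 300 to 391 CPM in the clones. Neither passed the test (edgeR adjusted p = 0.392 and 0.539). When the 2 siRNA control libraries were added to the controls, no member was without overlap, beside 1.99% of all genes.

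**Figure D3:**
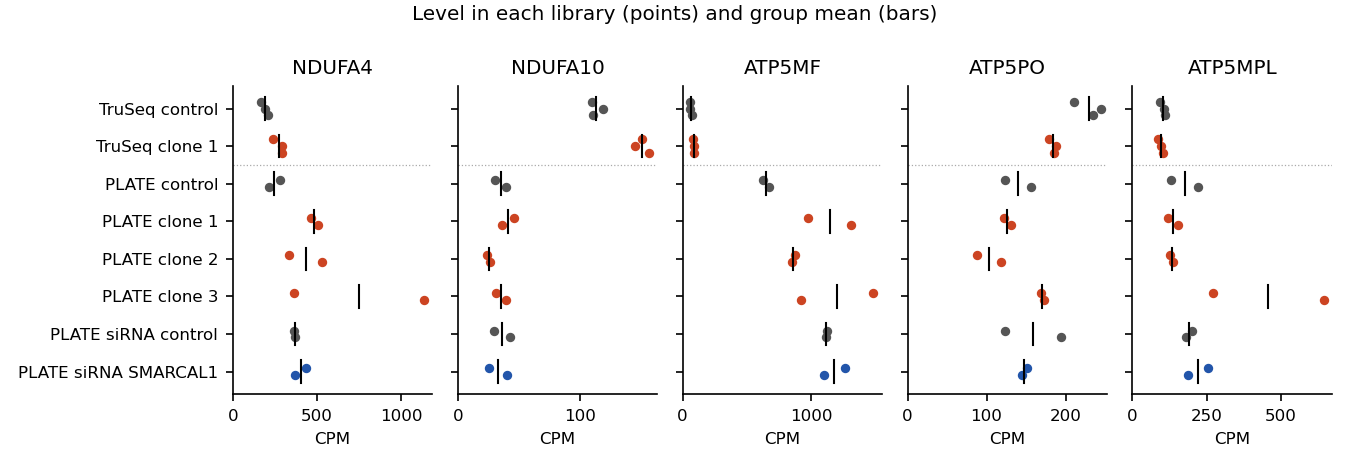
CPM of NDUFA4, NDUFA10, ATP5MF, ATP5PO and ATP5MPL in each of the 18 libraries (points: grey for controls, red for knockout clones, blue for siRNA against SMARCAL1), with short bars at the group mean; each panel has its own scale from 0, and levels are not comparable between the assays above and below the dotted line. NDUFA4 reaches 1137 CPM and ATP5MPL 644 CPM in clone 3 replicate 2.

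The clones were not alike as a group. In clone 2 the members' median log2 fold change was -0.19 and 21 of 77 were above 0, in clone 1 it was -0.04 with 36 above 0, and in clone 3 it was 0.28 with 54 above 0. The medians over all 8595 genes were between 0.00671 and 0.0205. The summed level of the members was 21140 and 22430 CPM in the control, 18900 CPM in each library of clone 2, and 26610 and 27700 CPM in clone 3, and these ranges did not overlap. Clone 1, at 21850 and 23460 CPM, overlapped the control. The siRNA control, without knockout, was also above the control at 23240 and 24470 CPM, and the range of siRNA against SMARCAL1, 25750 to 28150 CPM, covered that of clone 3. Cytosolic ribosomal protein genes, which are also short and abundant, moved with them: their sum was 80960 and 85000 CPM in the control, 75430 and 76150 in clone 2 and 99890 and 100200 in clone 3. Without clone 3 replicate 2 the members' median in clone 3 was 0.0997, and that of the ribosomal protein genes was 0.08 in place of 0.32. The mitochondrially encoded messenger RNAs summed to 273800 and 279400 CPM in the control and to 196000 and 308500 CPM in clone 3. The part of the ribosomal protein genes, and of the mitochondrial share, in this difference was not tested.

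By complex, the medians in clone 3 were 0.22 for complex I, 0.18 for complex II, 0.27 for complex III, 0.48 for complex IV and 0.26 for ATP synthase. Without clone 3 replicate 2 they were 0.05, 0.02, 0.36, 0.39 and 0.04, so that those of complexes I and II and ATP synthase were below the 0.0997 of all members. In clone 2 they were -0.17, -0.22, -0.32, 0.03 and -0.25. The 6 core subunits of complex I that were tested, which hold its redox centres, had a median of -0.07 in clone 3 and the 29 supernumerary subunits 0.33, and without that library -0.20 and 0.15. Complex IV had the highest median of the complexes in each of the 3 clones, with 0.13 in clone 1, and in clone 3 also without replicate 2, beside complex III. Its sum was 3857 and 4018 CPM in the control, 4276 and 4400 in clone 1, 2943 and 3765 in clone 2, and 5452 and 5666 in clone 3. The siRNA control, without knockout, had complex IV sums of 4451 and 5786 CPM, and complex IV also had the highest median there, 0.17.

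**Figure D4:**
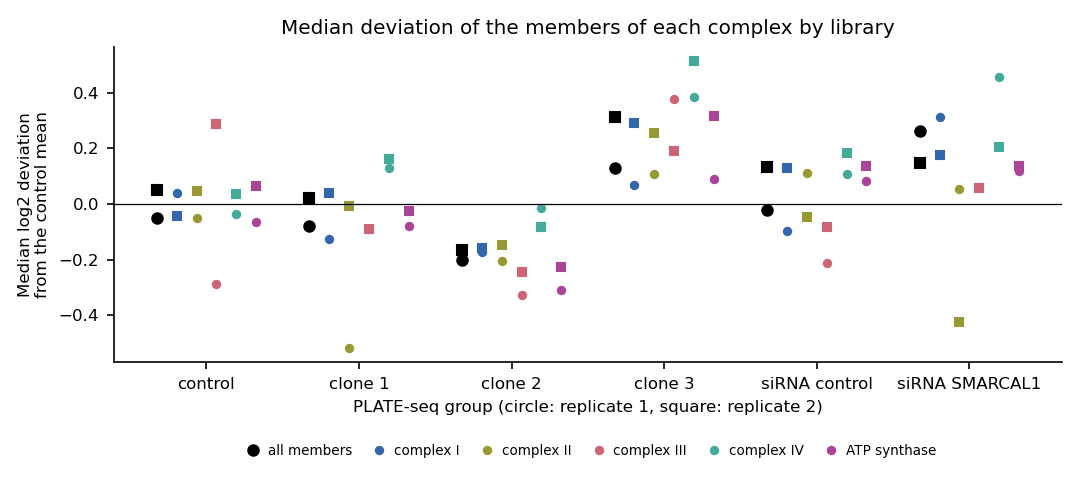
Median log2 deviation from the mean of the 2 control libraries (vertical axis, on log2 of CPM plus 0.5) of all members and of each complex in each PLATE-seq library (circles for replicate 1, squares for replicate 2). Both libraries of clone 2 lie below 0 for all members, at -0.20 and -0.17, and both of clone 3 above, at 0.13 and 0.31.

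Among the 3 clones, 18 members (23.4%) had an unadjusted p under 0.05 by edgeR, against 11.3% of all genes. After adjustment 0.71% of all genes differed, and 1 member did. ATP5MPL (chr14:103912288-103928269, minus strand), a small membrane proteolipid of ATP synthase, was at 119 and 153 CPM in clone 1, at 128 and 137 CPM in clone 2 and at 272 and 644 CPM in clone 3. Clone 3 was above the other 2 clones in both libraries (edgeR test of the difference among clones, F = 20.2, adjusted p = 0.00384). ATP5MPL in the control was at 131 and 221 CPM, and the log2 fold change of clone 3 against it was 1.39 (SE 0.342, adjusted p = 0.0585, and 0.0229 by DESeq2). Without clone 3 replicate 2 the difference among the clones had adjusted p = 0.542. In TruSeq, ATP5MPL in clone 1 had a log2 fold change of -0.11 (SE 0.0942). DESeq2 called 5 members among the clones (6.49%) and 1.94% of all genes.

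Depletion by siRNA gave a comparison that does not depend on a clone. No member was called against the siRNA control, where 0% of genes were called, and none by DESeq2. At an unadjusted p under 0.05 there were 5 members (6.49%), against 6.33% of all genes. The members' median was 0.13 with 53 of 77 above 0, against -0.02 for all genes. NDUFA4 was at 432 and 372 CPM, and its log2 fold change was 0.13 (SE 0.347). The highest members were NDUFS7, NDUFC2 and NDUFB2, the last at 3078 and 1980 CPM against 780 and 1466 CPM in the siRNA control (log2 1.17, SE 0.278, edgeR adjusted p = 0.291, and 0.00102 with no filter on low counts). The lowest were NDUFB10, ATP5PB and ATP5F1C, at -0.999, -0.98 and -0.81. The siRNA control against the untransfected control, a comparison of controls alone, called no member and 0.0116% of genes. At an unadjusted p under 0.05 there were 4 members (5.19%), against 7.78% of all genes. Its members ranged from -1.40 for ATP5PB to 0.79 for ATP5MF.

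Several of the lowest values in the clones came from members with few counts and wide errors. SDHD, the membrane anchor of complex II, had the lowest value for the mean of the clones at -0.99 (SE 1.07), on 0 to 14.4 CPM per library. UQCRB, a small subunit of complex III, was at 55.3 and 94.3 CPM in the control and 29.7 to 63.4 CPM in the clones, which overlap (log2 -0.72, SE 0.321, edgeR adjusted p = 0.458). ATP5MGL, a near copy of ATP5MG, had the lowest value in clone 2 at -2.43 (SE 0.738, adjusted p = 0.236), on 2.08 and 4.10 CPM against 15.5 and 18.6 in the control. NDUFB5 in clone 1, NDUFA13 and NDUFA5 in clone 2 and NDUFS1 and NDUFA13 in clone 3 were among the other extremes, and none of them was called.

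Subunits and partners outside the symbol rule were examined from lists. Of 7 subunits or carriers, 6 were tested in each assay, and none was called against a control. CYCS, the electron carrier cytochrome c, had a log2 fold change of 0.22 (SE 0.0608, edgeR adjusted p = 0.0713) in TruSeq, and in PLATE-seq of 0.90 (SE 0.286, adjusted p = 0.225) for the mean of the clones, but 0.09 (SE 0.317) for the siRNA. CYC1, the cytochrome of complex III, was at 0.16 and 0.53, and COX4I1, the regulatory subunit of complex IV, at -0.06 and -0.16 in TruSeq and for the clones. COX7A2L was at -0.01 and 0.19 and NDUFAB1 at -0.07 and 0.08. COX4I2, the lung and hypoxia form, had at most 0.0927 CPM in any TruSeq library and no counts in PLATE-seq. UQCRHL, a near copy of UQCRH, differed among the clones (adjusted p = 0.0246, and 0.109 without clone 3 replicate 2), at 577 and 603 CPM in clone 3 and 162 to 414 CPM in clones 1 and 2. UQCRH and UQCRHL can share reads.

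The lists below are read against the 6.27% of all genes called in TruSeq, 3.96% higher and 2.31% lower. Of 49 assembly factors, all were tested in TruSeq, and 1 fell. COA7, a factor for complex IV assembly, was at 88.7 to 90.3 CPM in the control and 61.6 to 64.9 CPM in clone 1 (log2 -0.50, SE 0.0634, edgeR adjusted p = 0.00379), with -0.46 and -0.52 on the more and fewer sides, and was called with any 1 library left out. Of 12 regulators of mitochondrial biogenesis 1 fell, TFB2M, which helps start mitochondrial transcription (log2 -0.35, SE 0.0835, adjusted p = 0.0461), with -0.38 on each side, and was not called with any 1 library left out. GABPA was at -0.40 (SE 0.104, adjusted p = 0.0579), NRF1 at 0.06, TFAM at 0.09 and ESRRA at -0.13, none past the threshold. None of 17 genes of the citric acid cycle was called. Of 78 mitochondrial ribosomal protein genes 5 fell and none rose: MRPL39, MRPL46, MRPS15, MRPS22 and MRPS23, with log2 fold changes from -0.47 to -0.38 and ratios from -0.51 to -0.27 within the sides. Their list median was -0.12, and the sum of the list was 4444 to 4979 CPM in the control and 4059 to 4415 CPM in clone 1. None of the 13 mitochondrially encoded messenger RNAs was called, with a median of -0.34, and their sum ranged over 2746 to 7235 CPM in the control and 2729 to 6733 CPM in clone 1. In PLATE-seq none of these lists had a gene called against a control. Of 75 cytosolic ribosomal protein genes tested in TruSeq 4 fell. Of these 11 calls of list genes in TruSeq, 1 to 8 held with 1 library left out, and 1, COA7, without control replicate 2. Of 68 cytosolic ribosomal protein genes in PLATE-seq 1 rose in clone 3, RPS28 (log2 3.83, edgeR adjusted p = 0.00607). Among the clones 2 differed, RPS28 and RPL7A. Over all genes in PLATE-seq, 0.663% were called in clone 3, 0.303% higher, and 0.71% differed among the clones. Without clone 3 replicate 2, RPS28 in clone 3 had adjusted p = 0.475, and among the clones RPS28 and RPL7A had 0.371 and 0.6. Of the 9 markers of triple-negative breast lines, 6 were tested in TruSeq and 5 in PLATE-seq, and none was called in the fits without further terms. With the side of the split as a term in TruSeq, 3 were lower and 1 higher.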

How the data were processed

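The authors deposited raw counts per gene symbol for each assay, made with STAR and HTSeq on hg38 per the submitters' processing notes; versions, annotation and strand setting are not given in the sources used here. Exons of 48 members overlap another gene, 36 of them one on the other strand, so such counts are uncertain. The 92 spike-ins of the PLATE-seq file were left out. Titles name MDA-MB-436 throughout, whereas in PLATE-seq the tag for the line carries another number in every sample and was taken as a filling error. Members were joined between files by symbol or RefSeq synonym. Each assay was fitted alone with edgeR 4.0.16 (R 4.3.3; default filter on low counts, TMM scaling, quasi-likelihood F test), all 12 PLATE-seq libraries together, with Benjamini-Hochberg adjustment over all genes tested and a threshold of 0.05. DESeq2 1.42.0 was an alternative. Fits were checked on simulated data. CPM use the TMM-scaled library size. Coordinates and exon lengths are from GENCODE 29, and promoter windows from RefSeq (GRCh38.p14). At these depths 3 counts are 0.156 to 0.292 CPM in a TruSeq and 0.978 to 3.71 CPM in a PLATE-seq library.

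Named members are those called in any comparison, the highest of each complex in each assay, the 3 highest and 3 lowest fold changes per comparison, and paralogues; from the other lists, called genes and subunits outside the symbol rule are named. NDUFA7, NDUFV2, NDUFB4, GABPA, NRF1, TFAM, ESRRA and others given with a count or a range were named after their values were seen. The members and lists were chosen with earlier results of these data known. Alternatives were other scaling, no filter, leaving out libraries, only the libraries compared, the other control and a replicate block. In PLATE-seq, deviations from the group means correlated at -0.0495 to 0.0504 between same-numbered libraries. The replicate numbers did separate the spike-in share of the counts in all 6 groups. It was 0.0230% to 0.0534% in replicate 1 and 0.000205% to 0.00136% in replicate 2. What this difference stands for is not in the labels, and the main fits had no replicate term. In TruSeq the correlations of same-numbered libraries, as deviations from the group means, were 0.58, -0.25 and 0.42 for replicates 1, 2 and 3. Control replicate 3 and clone 1 replicate 2 were at 0.57.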

Additional observations from a re-analysis of the deposited data

Results flagged for a closer look

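ATP5MPL was marked because its level differed among the 3 knockout clones by a direct test of that difference (edgeR's quasi-likelihood F test over the clones, adjusted p = 0.00384), with clone 3 above clones 1 and 2 in both of its libraries. The value rested on clone 3 replicate 2, at 644 CPM, since without that library adjusted p was 0.542. Groups of 2 or 3 libraries are too small for the check of single outlying samples, which was not run.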

How the results depend on the processing

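Precision is limited by 2 or 3 libraries per group and, in PLATE-seq, by depth: the members' median standard error for the mean of the clones was 0.263 on the log2 scale, against 0.0964 in TruSeq. The 3 clones were all compared with the same 2 control libraries. RLE normalization changed no direction and no call of a member, and took no count of calls beyond 1.5 times.

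In TruSeq the 1089 genes called became 3793 with the side of the split by detected symbols as a term and 2517 within the libraries with fewer symbols, and the 5 members became 25 and 16; these fits were chosen after seeing the data. With a replicate block, 2387 genes and 11 members were called. The TruSeq numbers paired the samples only in part (correlations of same-numbered libraries from -0.25 to 0.58, 2 of 3 over 0.1). Among the PLATE-seq clones the replicate block gave 2 members, against 1 without it. The count of all genes in that fit is not given here, so no gain particular to the members is read from it. Leaving out 1 TruSeq library gave 199 to 1145 genes and 0 to 5 members.

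In PLATE-seq, DESeq2 called 43 genes for the mean of the clones, 16, 31 and 111 for clones 1, 2 and 3, 2 for the siRNA, 5 for the siRNA control and 167 among the clones, with 3 members in clone 3 and 5 among the clones. With no filter the counts were 83, 36, 61, 156, 22, 35 and 230, with 1 member for the mean (NDUFA4), 3 in clone 3, 1 for the siRNA (NDUFB2) and 5 among the clones. A fit of only the 4 libraries compared called 1 gene in clone 2, 3 in clone 3 with 0 members, 1 for the siRNA and 0 for the siRNA control. Set against the siRNA control, clones 1, 2 and 3 had 7, 13 and 24 genes, 0 members were called in clone 3, and ATP5MF for the mean of the clones turned to -0.079.

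Leaving out 1 PLATE-seq library gave 5 to 52 genes and 0 to 1 members for the mean of the clones, 0 to 3 genes for clone 1, 3 to 12 for clone 2, 7 to 131 genes and 0 to 3 members for clone 3, 0 to 2 genes for the siRNA, 0 to 4 for the siRNA control, and 17 to 141 genes and 0 to 5 members among the clones. The members' median then ranged over -0.038 to 0.084 for the mean, -0.28 to -0.16 for clone 2, 0.0997 to 0.30 for clone 3 and -0.060 to 0.14 for the siRNA control. Where this left 1 library in a group, it was assumed to vary like the others. The causes were not tested.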
